A study of Homo sapiens with 6 samples.

Results

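HCT116SCs are colorectal cancer stem cells derived from the colon carcinoma line HCT116 and grown as spheres in serum-free medium with EGF and bFGF. Vesicle transport genes of the early secretory pathway were compared in 3 libraries of HCT116SCs, labelled wild type and transfected with a negative control siRNA (NC), and 3 libraries of HCT116SCs labelled PSCA knockdown and transfected with siRNA against PSCA, the prostate stem cell antigen (siPSCA). All cells came from 1 line and were harvested 48 h after liposomal transfection, and the labels do not say which of the PSCA siRNAs listed for the study entered each library. The 49 genes were taken by name from the table of 58735 genes and comprise the COPII and COPI coats with their GTPases, the SNAREs of ER to Golgi fusion, the TMED (p24) proteins, other cargo receptors with the KDEL receptors, and the translocon with the TRAP complex. All 49 were found and all 49 passed the minimum of a mean FPKM of 1, which 13796 genes passed in all. FPKM, the fragments counted on a gene scaled to its exonic length and to the mapped fragments of the library, is the unit of every level given here.

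Newly made secretory and membrane proteins enter the endoplasmic reticulum (ER) through the SEC61 channel. COPII-coated vesicles carry them from ER exit sites towards the Golgi, and COPI-coated vesicles bring escaped ER residents, receptors and SNAREs back. Both coats are built by a small GTPase that is loaded with GTP at the membrane, SAR1 for COPII and ARF1 for COPI, and cargo receptors such as the TMED proteins, LMAN1 and the KDEL receptors link cargo to the coats.

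Reads on genes, recovered from the FPKM values, numbered 16145977 to 16884838 in NC and 16099716 to 17302219 in siPSCA, and each of the 49 genes rested on 221 to 7078 reads per library. Other labels name the same cells in every library, but the titles of siPSCA 2 and siPSCA 3 carry a different number after HCT. PSCA itself had 4, 12 and 15 reads in NC and 9, 9 and 7 in siPSCA. The log2 fold change of PSCA was −0.07 (SE 0.12, adjusted p = 0.728 with limma over all genes with a read), so the targeted transcript did not tell the groups apart at this depth and the libraries are named here by their labels. By Western blot, the study reports less PSCA protein in HCT116SCs with each PSCA siRNA it used, and the libraries themselves hold no protein measure. EPCAM, CD44, KRT8, KRT18, KRT19 and CDH1 were expressed in every library. Of the intestinal markers, VIL1 was at most 0.0407 FPKM, and CDX2 was at 2.25, 2.51 and 1.68 FPKM in NC and at 3.99, 4.18 and 4.06 in siPSCA. Levels of these markers moved with the groups: CDX2 rose (log2 fold change 0.70, adjusted p = 0.00387), CD44 fell by 26.5% (adjusted p = 0.00193) and CDH1 by 35.3% (adjusted p = 0.00134), all past also after the GC trend described below was removed, and KRT8 (adjusted p = 0.00848) and KRT19 (adjusted p = 0.00589) rose before that removal only. EPCAM and KRT18 did not pass, although KRT18 was lower after the removal (adjusted p = 0.0224), and the part of these shifts in the results was not tested. Of 11 markers of leukocytes, endothelium and fibroblasts, 10 were at most 0.213 FPKM in any library, with CD3E at 0 throughout. Summed over their lists, leukocyte markers came to 0.0434 to 0.218 FPKM in NC and 0.0421 to 0.297 in siPSCA, endothelial markers to 0.120 to 0.251 and 0.215 to 0.232, and fibroblast markers to 3.44 to 5.70 and 6.07 to 6.64. COL1A1 carried the fibroblast sum and reached 3.35 to 5.62 FPKM in NC and 5.95 to 6.51 FPKM in siPSCA, and its part in the results was not tested. The sources do not say whether the 3 libraries of a group came from separate cultures, so p-values measure the spread between these libraries, which may be technical. In bulk RNA, fewer cells with a transcript and less of it per cell cannot be told apart.

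Of the 49 vesicle transport genes, 25 fell and 5 rose in siPSCA at an adjusted p under 0.05, and 19 did not pass. The falls were led by LMAN1 (56.6% lower), TMED7 (51.4% lower), SEC63 (50.01% lower), SEC61G (48.5% lower) and KDELR3 (47.4% lower). The rises were PREB, SEC61A1, SEC16A, SEC24C and KDELR1, and the largest of them was 40.9%. Falls thus took 51.0% of the members, beside 24.2% of all 13796 genes tested, and rises took 10.2% of the members, beside 26.6% of all genes tested. In either direction 50.7% of all genes passed, which is the background against which a single call stands. The median log2 fold change, siPSCA minus NC on the log2(FPKM + 1) scale, was −0.20 over the 49 members, with a range from −1.15 to 0.47, and 0.01 over all genes tested.

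A stricter rule, an unadjusted p under 0.05 with a log2 fold change over 0.5 in size, named 13 members as lower and 0 as higher, and it named 6 as lower once the GC and length trend described below was removed. Over all genes tested that rule named 10.2% as lower and 14.7% as higher before that removal. Its share over all genes after the removal was not taken, so the 6 stand without a background. In 29 members every siPSCA library lay below every NC library, in 9 every siPSCA library lay above, and in 11 the groups overlapped. Over all genes tested 30.8% lay wholly below and 33.7% wholly above. Of the 25 members that fell, 20 passed in all 6 fits that left out 1 library, and of the 5 that rose, 3 did. The like share of all called genes was not taken.

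The fold change followed base composition. GC content, taken from the longest GENCODE transcript of each gene, had a median of 45.2% over the members and ran from 36.1% in SEC61G to 62.1% in COPE, and the median over all genes tested was 48.1%. Across the 49 members the log2 fold change and GC content had a Spearman rho of 0.761, and across 13792 tested genes with a GC value rho was 0.664. These points share libraries and genes are not independent replicates, so the correlations are descriptions. The library NC 3 stood apart from NC 1 and NC 2 in the opposite sense (rho of −0.561 between GC content and NC 3 minus the mean of the other NC libraries), and it was the highest NC library in 20 of the 25 members that fell. Without NC 3, 25 members were called lower and 7 higher, and rho over all genes was 0.604. Over all genes that fit called 3385 lower and 4025 higher, beside 3333 and 3668 with all libraries.

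Of the 24 members with under 45% GC, a boundary set after the values were seen, 18 fell and 0 rose, and their median log2 fold change was −0.46. All 5277 tested genes under that boundary fell in 47.1% and rose in 4.64% of cases, with a median of −0.25. Of the 25 members at or above it, 7 fell and 5 rose, with a median of 0.06, where all 8515 tested genes fell in 9.91% and rose in 40.2% of cases with a median of 0.21. The members therefore lay lower than the gene median on either side of the boundary, as a description. When a smooth trend of each library on GC content and gene length was removed, 23 members were called lower and 2 higher with a median log2 fold change of −0.12, where 18.4% of all genes were called lower and 21.2% higher. Of these 23, 18 were lower in both fits, and none of the 5 rises passed after the trend was removed. The fit with the trend removed is given beside each result whose call it ends or turns, and the part of base composition in the fold changes was not tested.

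**Figure D1:**
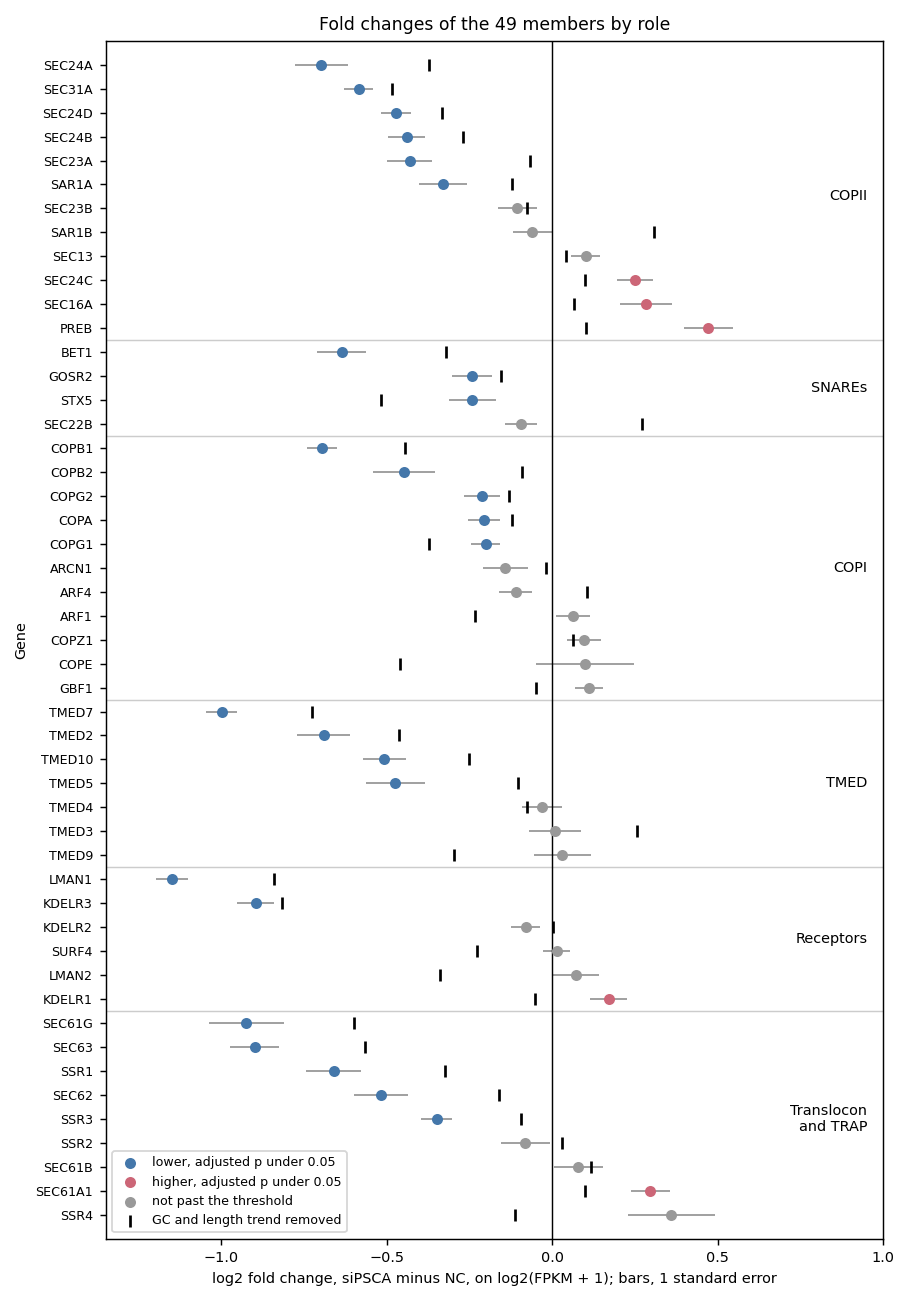
Log2 fold change (siPSCA minus NC on the log2(FPKM + 1) scale, horizontal axis) of each of the 49 members (vertical axis) by role, as a circle coloured by its call with a bar of 1 standard error, and a black tick for the value after the trend on GC content and gene length was removed. LMAN1, TMED7 and KDELR3 lie far below 0 by both values, whereas the ticks of the 5 members that rose lie closer to 0 than their circles.

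The COPII coat and its assembly factors (12 members) moved in both directions, with 6 falls, 3 rises and 3 that did not pass, and a median log2 fold change of −0.22. With the GC and length trend removed they gave 4 falls and 1 rise with a median of −0.071. SEC24A, SEC24B, SEC24C and SEC24D encode the cargo-binding subunits of the inner coat. SEC24A was at 11.8, 12.7 and 14.1 FPKM in NC and at 7.19, 7.31 and 8.16 in siPSCA. SEC24D was at 12.9, 13.3 and 12.9 FPKM in NC and at 9.19, 8.92 and 9.17 in siPSCA. SEC24B was at 17.7, 17.1 and 18.6 FPKM in NC and at 12.6, 12.4 and 13.5 in siPSCA. In these paralogs every siPSCA library lay below every NC library, and the log2 fold changes were −0.70 for SEC24A (SE 0.08, adjusted p = 0.00169), −0.47 for SEC24D (SE 0.05, adjusted p = 0.00108) and −0.44 for SEC24B (SE 0.06, adjusted p = 0.00217). All of them passed after the trend was removed, at −0.37 for SEC24A, −0.33 for SEC24D and −0.27 for SEC24B. SEC24C went the other way. An antisense gene, AC022400.8, covers 42.9% of its exonic bases and was listed at a mean of 0.233 FPKM. SEC24C was at 14.4, 14.3 and 13.6 FPKM in NC and at 16.3, 17.8 and 16.7 in siPSCA, a log2 fold change of 0.25 (SE 0.05, adjusted p = 0.0113), which was 0.10 and did not pass with the GC and length trend removed.

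SEC31A, which forms the outer cage together with SEC13, was at 14.8, 14.99 and 15.01 FPKM in NC and at 9.53, 9.55 and 9.80 in siPSCA. The NC and siPSCA libraries of SEC31A were each close to one another, and the fall was 35.6% (log2 fold change −0.58, SE 0.04, adjusted p = 0.000613). Its cage partner SEC13 had 16.8, 17.3 and 17.4 FPKM in NC and 18.5, 18.6 and 18.3 in siPSCA, with the siPSCA libraries above, and a log2 fold change of 0.10 that did not pass (adjusted p = 0.0970, and 0.0393 without NC 3). The levels of the cage subunits, close to each other in NC, thus lay apart in siPSCA. SEC23A, the GTPase-activating subunit of the inner coat, was at 18.7, 19.1 and 21.5 FPKM in NC and at 14.4, 13.9 and 14.9 in siPSCA (log2 fold change −0.43, SE 0.07, adjusted p = 0.00378), and its paralog SEC23B was at 46.1, 45.8 and 51.3 FPKM in NC and at 44.3, 43.2 and 45.2 in siPSCA (log2 fold change −0.11, adjusted p = 0.178). SEC23A was −0.07 with the GC and length trend removed and no longer passed.

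SAR1 is the GTPase that starts COPII assembly, and PREB is the exchange factor that loads it with GTP. SAR1A was at 23.1, 23.1 and 27.2 FPKM in NC and at 19.3, 19.4 and 18.96 in siPSCA, all below NC (log2 fold change −0.33, SE 0.07, adjusted p = 0.0121). SAR1B was at 5.64, 5.79 and 5.20 FPKM in NC and at 5.27, 5.16 and 5.40 in siPSCA, and the groups overlapped (log2 fold change −0.06, adjusted p = 0.424). PREB (ENSG00000138073, chromosome 2, 27130756 to 27134675, minus strand) rose by the most of any member, from 15.9, 17.3 and 14.6 FPKM in NC to 23.3, 22.8 and 21.3 in siPSCA (log2 fold change 0.47, SE 0.07, adjusted p = 0.00392). SEC16A, the scaffold of ER exit sites, was at 16.9, 15.1 and 13.8 FPKM in NC and at 18.5, 18.4 and 19.3 in siPSCA (log2 fold change 0.28, SE 0.08, adjusted p = 0.0246), and it passed without NC 1 or NC 3 and lost its call without any of the other libraries (adjusted p up to 0.0772) or with no filter on low values (adjusted p = 0.0557). With the GC and length trend removed, SAR1A was −0.12, PREB 0.10 and SEC16A 0.07, none of which passed, and SAR1B was 0.31 and passed as higher (adjusted p = 0.0186).

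SAR1B and SEC24A are neighbours on chromosome 5, read in opposite directions from heads that overlap by 385 exonic bases. SAR1B spans 134601144 to 134649271 and SEC24A spans 134648789 to 134727823 in the GRCh38 positions of the table. The shared bases make up 3.51% and 5.35% of the exonic length of SAR1B and SEC24A, and the strand setting of the counting is not stated, so reads there could fall to either gene. Within a library, SEC24A over SAR1B was 2.09, 2.20 and 2.72 in NC and 1.37, 1.42 and 1.51 in siPSCA, a pair picked after its values were seen.

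The SNAREs that fuse ER-derived vesicles with the Golgi (4 members) gave 3 falls and 0 rises. BET1 was at 4.56, 4.71 and 4.30 FPKM in NC and at 2.59, 2.77 and 2.31 in siPSCA, a fall of 43.5% with a log2 fold change of −0.64 (SE 0.07, adjusted p = 0.00164), and it rested on 221 to 430 reads per library. GOSR2 was at 4.40, 4.22 and 4.65 FPKM in NC and at 3.48, 3.55 and 3.71 in siPSCA (log2 fold change −0.24, SE 0.06, adjusted p = 0.0176). STX5, the syntaxin of this complex, was at 16.4, 18.04 and 15.7 FPKM in NC and at 14.6, 14.3 and 13.1 in siPSCA (log2 fold change −0.24, SE 0.07, adjusted p = 0.0300). In each of these SNAREs the siPSCA libraries lay wholly below NC. STX5 kept its call without NC 3 and lost it without any of the other libraries (adjusted p up to 0.0933) or with no filter on low values (adjusted p = 0.0638), yet was −0.52 (adjusted p = 0.000856) with the GC and length trend removed. After removal of the trend BET1 was −0.32 (adjusted p = 0.0272) and GOSR2 −0.15 (adjusted p = 0.0402). GOSR2 lost its call without siPSCA 1 or siPSCA 2 (adjusted p up to 0.0656). The fusion partner SEC22B was at 9.92, 10.3 and 10.3 FPKM in NC and at 9.19, 9.40 and 9.75 in siPSCA and did not pass (log2 fold change −0.09, adjusted p = 0.149). SEC22B passed as higher, at 0.27, with the trend removed, and its reads can be shared with near-identical pseudogene copies, so both values are uncertain.

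The COPI coat with its GTPases (11 members) gave 5 falls, 0 rises and 6 that did not pass, with a median log2 fold change of −0.14, which was −0.083 without NC 3. With the trend removed they gave 5 falls and 0 rises with a median of −0.12. The 5 that fell were coat subunits. COPB1, the β subunit of coatomer (ENSG00000129083, chromosome 11, 14443440 to 14500027, minus strand), was at 54.6, 54.4 and 53.8 FPKM in NC and at 33.4, 31.9 and 34.1 in siPSCA. The groups of COPB1 lay far apart beside their spread, and the fall was 39.0% (log2 fold change −0.70, SE 0.05, adjusted p = 0.00042, and −0.45 with the trend removed). COPB2, the β′ subunit, was at 32.1, 32.2 and 40.4 FPKM in NC and at 25.0, 25.0 and 25.6 in siPSCA (log2 fold change −0.45, SE 0.09, adjusted p = 0.0102). NC 3 stood above the other NC libraries in COPB2, and with the GC and length trend removed its log2 fold change was −0.09 and did not pass.

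The other falls in the COPI coat were small. COPA, the α subunit, was at 45.1, 45.8 and 47.6 FPKM in NC and at 39.4, 39.0 and 41.2 in siPSCA, a fall of 13.6% (log2 fold change −0.21, SE 0.05, adjusted p = 0.0137). COPG1 was at 61.6, 61.9 and 63.9 FPKM in NC and at 52.8, 54.4 and 55.5 in siPSCA, a fall of 13.2% (log2 fold change −0.20, SE 0.04, adjusted p = 0.0115). The paralogous γ subunit COPG2 was at 11.7, 12.3 and 11.5 FPKM in NC and at 9.67, 10.4 and 10.3 in siPSCA, a fall of 14.8% (log2 fold change −0.21, SE 0.05, adjusted p = 0.0184). In all 3 the siPSCA libraries lay below NC. Without siPSCA 1 none of them passed (adjusted p = 0.0561 for COPA, 0.0512 for COPG1 and 0.0700 for COPG2), and COPA and COPG2 also missed without siPSCA 2 and COPG2 without NC 2. After removal of the trend COPA was −0.12 and COPG1 −0.37, both past, and COPG2 was −0.13 and did not pass.

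Coatomer subunits ζ and δ, encoded by COPZ1 and ARCN1, did not pass. COPZ1 had 35.0, 36.9 and 36.6 FPKM in NC and 39.3, 37.0 and 40.0 in siPSCA (log2 fold change 0.10, adjusted p = 0.157), and ARCN1 had 67.0, 68.4 and 76.4 FPKM in NC and 63.0, 61.2 and 67.5 in siPSCA (log2 fold change −0.14, adjusted p = 0.131). COPE, the ε subunit with the highest GC content of the members, varied within both groups, with 26.9, 28.8 and 20.3 FPKM in NC and 30.3, 27.2 and 23.6 in siPSCA (log2 fold change 0.10, adjusted p = 0.604). COPE turned to −0.46 (adjusted p = 0.00371) with the GC and length trend removed. Subunits of this coat therefore spanned log2 fold changes from −0.70 in COPB1 to 0.10 in COPZ1 and COPE.

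ARF1, the GTPase that recruits coatomer, had the highest NC level of the 49 genes, with 110.4, 115.4 and 105.5 FPKM in NC and 113.7, 114.1 and 118.4 in siPSCA. ARF4 was at 74.4, 72.7 and 79.0 FPKM in NC and at 69.6, 71.3 and 68.3 in siPSCA. GBF1, the Golgi exchange factor of these GTPases, was at 39.9, 39.1 and 41.1 FPKM in NC and at 43.4, 43.0 and 43.6 in siPSCA. None of them passed with all libraries, although GBF1 did without NC 3 (adjusted p = 0.0143), with log2 fold changes of 0.06 for ARF1 (adjusted p = 0.330), −0.11 for ARF4 (adjusted p = 0.110) and 0.11 for GBF1 (adjusted p = 0.0682). ARF1 was −0.23 (adjusted p = 0.0116) with the trend removed.

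The TMED (p24) proteins are cargo receptors that cycle between ER and Golgi in hetero-oligomers. Of the 7 members 4 fell, 0 rose and 3 did not pass, and their median log2 fold change was −0.47, or −0.25 with the trend removed, where 4 were called lower and 0 higher. TMED7 (ENSG00000134970, chromosome 5, 115613508 to 115632992, minus strand) was at 35.5, 35.4 and 35.7 FPKM in NC and at 16.8, 17.0 and 18.03 in siPSCA (log2 fold change −0.9997, SE 0.05, adjusted p = 0.000163). TMED2 was at 87.9, 90.9 and 106.9 FPKM in NC and at 57.7, 57.5 and 60.0 in siPSCA (log2 fold change −0.69, SE 0.08, adjusted p = 0.00167). TMED10 was at 69.0, 70.3 and 79.8 FPKM in NC and at 51.3, 49.7 and 52.0 in siPSCA (log2 fold change −0.51, SE 0.07, adjusted p = 0.00224). These falls passed in both fits, with −0.73 for TMED7, −0.46 for TMED2 and −0.25 for TMED10 once the trend was removed. A readthrough transcript, TMED7-TICAM2, covers 24.01% of the exonic bases of TMED7 and was listed at a mean of 0.0622 FPKM.

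TMED5 was at 9.18, 10.03 and 11.3 FPKM in NC and at 6.58, 6.85 and 7.68 in siPSCA (log2 fold change −0.47, SE 0.09, adjusted p = 0.00735), and it was −0.10 and did not pass with the trend removed. The other TMED members overlapped between the groups. TMED9 was at 52.3, 54.3 and 48.0 FPKM in NC and at 56.6, 54.8 and 46.9 in siPSCA (log2 fold change 0.03, adjusted p = 0.783). TMED4 was at 24.1, 23.1 and 21.9 FPKM in NC and at 21.6, 23.9 and 22.2 in siPSCA (log2 fold change −0.03, adjusted p = 0.700). TMED3 had the lowest NC level of all members, with 2.98, 2.77 and 2.43 FPKM in NC and 2.65, 2.72 and 2.86 in siPSCA (log2 fold change 0.01, adjusted p = 0.934). TMED9 was −0.30 (adjusted p = 0.0103) with the trend removed. FPKM here divides by all exonic bases of a gene, which number 19470 in TMED3, so a gene with long extra exons is listed lower than a single transcript of it would be. Whether 2 genes stand at like levels within a group depends on that length too. This holds for SEC31A and SEC13, for KDELR2 and KDELR3, and for SEC24C and SEC24D (5341 and 9920 exonic bases).

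Among the other cargo receptors and KDEL receptors (6 members), LMAN1 and KDELR3 fell, KDELR1 rose and 3 did not pass, and with the trend removed 4 were called lower and 0 higher. LMAN1, also called ERGIC-53 (ENSG00000074695, chromosome 18, 59327823 to 59359962, minus strand), is the mannose-binding receptor that carries coagulation factors V and VIII among other glycoproteins. It was at 32.4, 31.8 and 34.2 FPKM in NC and at 13.9, 14.2 and 14.6 in siPSCA. LMAN1 had the largest fall of the 49 members, with a log2 fold change of −1.15 (SE 0.05, adjusted p = 0.000125), and was still at −0.84 (adjusted p = 5.65e-05) with the trend removed. The related lectin LMAN2 was at 46.4, 50.1 and 44.0 FPKM in NC and at 49.1, 52.5 and 46.4 in siPSCA, and the groups overlapped (log2 fold change 0.07, adjusted p = 0.416). SURF4, a receptor for soluble cargo, was at 67.5, 69.9 and 68.5 FPKM in NC and at 69.9, 69.2 and 68.7 in siPSCA (log2 fold change 0.01, adjusted p = 0.803). With the trend removed LMAN2 was −0.34 (adjusted p = 0.0100) and SURF4 −0.23 (adjusted p = 0.00851), so these calls turned on the base composition setting.

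The KDEL receptors return escaped ER chaperones to the ER. KDELR3 (ENSG00000100196, chromosome 22, 38468062 to 38483447, plus strand) was at 38.5, 39.0 and 40.6 FPKM in NC and at 20.0, 20.1 and 21.9 in siPSCA (log2 fold change −0.90, SE 0.05, adjusted p = 0.000345), and it was −0.82 (adjusted p = 0.000152) with the trend removed. KDELR2 was at 37.5, 38.5 and 38.3 FPKM in NC and at 37.0, 35.1 and 36.0 in siPSCA, below NC by less than the test could call (log2 fold change −0.08, adjusted p = 0.172). KDELR1 was at 71.9, 73.4 and 65.3 FPKM in NC and at 80.1, 78.9 and 78.2 in siPSCA (log2 fold change 0.17, SE 0.06, adjusted p = 0.0440). KDELR2 and KDELR3 thus stood at like levels in NC and apart in siPSCA. The rise of KDELR1 passed without NC 3 and lost its call without any of the other libraries (adjusted p up to 0.128). It also missed on TPM (adjusted p = 0.0767), with voom (0.0581), with no filter on low values (0.0884) and with the replicate number as a block (0.0592), and it was −0.05 with the trend removed.

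**Figure D2:**
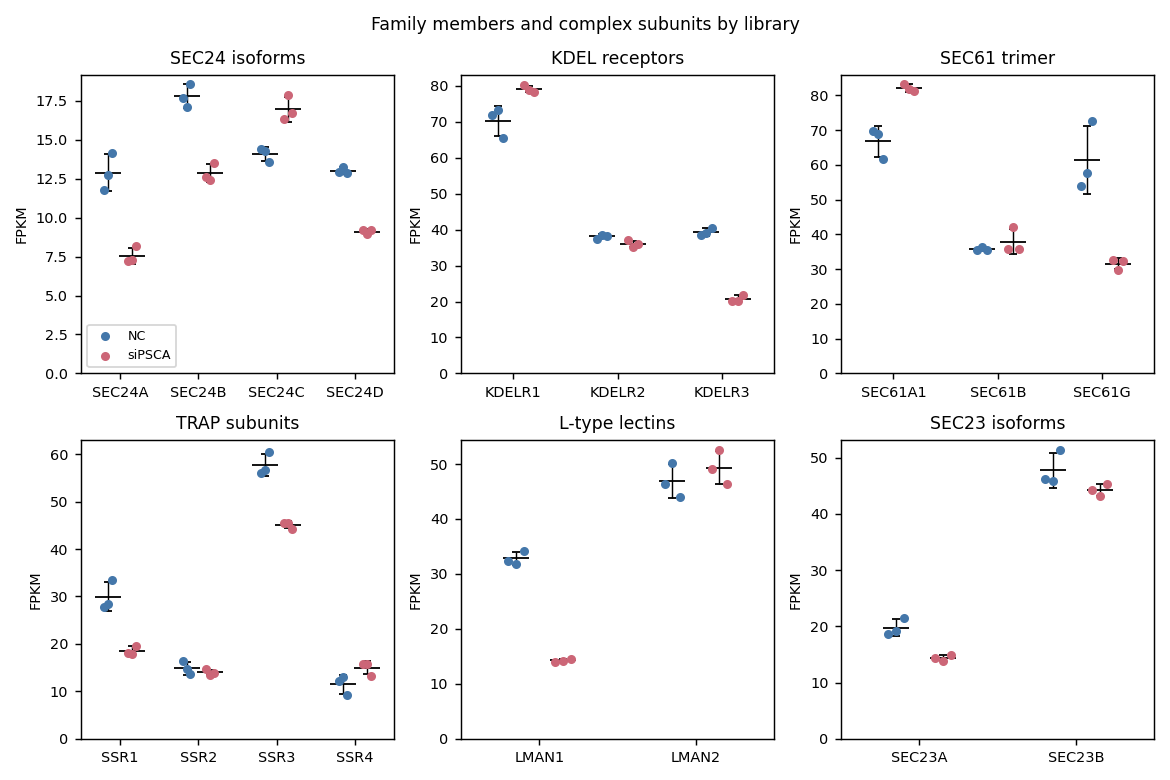
FPKM (linear vertical axes) of paralogs and complex subunits in 6 panels, with 1 point for each of the 3 libraries of NC and of siPSCA and black marks for the mean ± SD of each group. KDELR3 lies below KDELR2 in every siPSCA library, LMAN1 lies further below LMAN2 in siPSCA than in NC, and SEC24C and SEC24D, close in NC by FPKM, lie apart in siPSCA.

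The translocon and the TRAP complex that helps it (9 members) gave 5 falls, 1 rise and 3 that did not pass, with a median log2 fold change of −0.35. With the trend removed the median was −0.11, with 3 falls and 0 rises. SEC61A1 encodes the channel itself and SEC61G and SEC61B its small subunits. SEC61G (ENSG00000132432, chromosome 7, 54752250 to 54759974, minus strand) was at 54.0, 57.6 and 72.5 FPKM in NC and at 32.5, 29.9 and 32.5 in siPSCA (log2 fold change −0.92, SE 0.11, adjusted p = 0.00187). SEC61A1 was at 69.7, 69.0 and 61.7 FPKM in NC and at 83.3, 81.9 and 81.1 in siPSCA (log2 fold change 0.30, SE 0.06, adjusted p = 0.00847). SEC61B was at 35.5, 36.4 and 35.4 FPKM in NC and at 35.8, 42.2 and 35.8 in siPSCA and did not pass (log2 fold change 0.08, adjusted p = 0.396). Subunits of this 3-part channel therefore fell, rose and overlapped. SEC61G has the lowest GC content of the members and was −0.60 (adjusted p = 0.00355) with the trend removed, where SEC61A1 was 0.10 and did not pass. RUVBL1, on the opposite strand at a mean of 16.7 FPKM, shares 7.32% of the exonic bases of SEC61A1.

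SEC62 and SEC63 assist the channel with proteins that enter after translation. SEC63 (ENSG00000025796, chromosome 6, 107867756 to 107958189, minus strand) was at 12.3, 12.4 and 13.9 FPKM in NC and at 5.995, 6.34 and 6.97 in siPSCA (log2 fold change −0.90, SE 0.08, adjusted p = 0.000755), and SEC62 was at 13.4, 15.04 and 16.7 FPKM in NC and at 10.1, 10.4 and 10.1 in siPSCA (log2 fold change −0.52, SE 0.08, adjusted p = 0.00397). Both lay wholly below NC. With the trend removed SEC63 was −0.57 (adjusted p = 0.000549), and SEC62 was −0.16 and did not pass.

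SSR1 to SSR4 encode the α, β, γ and δ subunits of TRAP. SSR1 was at 27.8, 28.5 and 33.4 FPKM in NC and at 18.02, 17.9 and 19.6 in siPSCA (log2 fold change −0.66, SE 0.08, adjusted p = 0.00198). SSR3 was at 56.1, 56.7 and 60.5 FPKM in NC and at 45.5, 45.5 and 44.3 in siPSCA (log2 fold change −0.35, SE 0.05, adjusted p = 0.00263). SSR1 and SSR3 fell with no overlap between the groups, and with the trend removed SSR1 was −0.32 (adjusted p = 0.00398) and SSR3 was −0.09 and did not pass. SSR4 was at 12.2, 13.1 and 9.28 FPKM in NC and at 15.7, 15.8 and 13.3 in siPSCA, above NC but not past the threshold (log2 fold change 0.36, SE 0.13, adjusted p = 0.0611). SSR4 passed without NC 2 (adjusted p = 0.0451), with voom (0.0419), with an FPKM minimum of 5 (0.0482) and with the replicate number as a block (0.0146), and it turned to −0.11 with the trend removed. SSR2 was at 16.3, 14.7 and 13.7 FPKM in NC and at 14.6, 13.5 and 13.9 in siPSCA, and the groups overlapped (log2 fold change −0.08, adjusted p = 0.392).

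**Figure D3:**
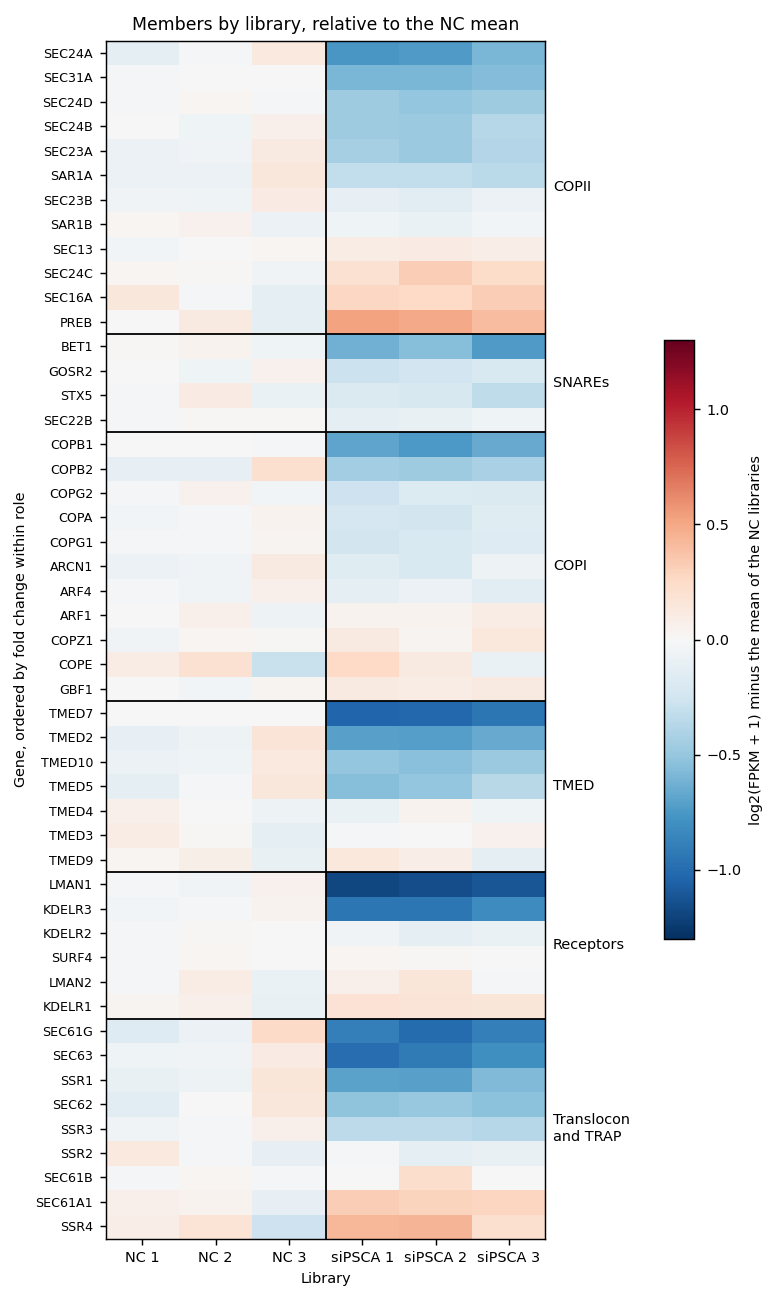
FPKM of the 49 members in each of the 6 libraries, shown as the difference of log2(FPKM + 1) from the mean of the NC libraries (colour scale), with genes ordered by role and libraries along the horizontal axis. The siPSCA columns are low in LMAN1, TMED7, KDELR3, SEC63 and SEC61G, high in PREB and SEC61A1, and NC 3 differs from NC 1 and NC 2 in genes such as COPB2, SEC61G and COPE.

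Ratios within a library, which a common scale factor cannot move, were taken for 11 pairs of related members. In 6 pairs every siPSCA library lay below NC, in 3 above and in 2 the groups overlapped. The like share over other gene pairs was not taken. Of all genes tested, taken singly, 30.8% lay wholly below and 33.7% wholly above. LMAN1 over LMAN2 was 0.699, 0.635 and 0.776 in NC and 0.283, 0.271 and 0.314 in siPSCA. KDELR3 over KDELR2 was 1.03, 1.01 and 1.06 in NC and 0.542, 0.571 and 0.609 in siPSCA. These receptor pairs shifted in every library towards the second gene. SEC24C over SEC24D went up, from 1.12, 1.07 and 1.06 in NC to 1.77, 2.00 and 1.82 in siPSCA. SEC23A over SEC23B was 0.405, 0.417 and 0.419 in NC and 0.324, 0.321 and 0.329 in siPSCA. TMED7 over TMED9 was 0.680, 0.652 and 0.744 in NC and 0.298, 0.310 and 0.384 in siPSCA. The γ subunits COPG1 and COPG2 had overlapping ratios of 5.26, 5.03 and 5.55 in NC and 5.46, 5.25 and 5.40 in siPSCA. The remaining pairs were SAR1A over SAR1B (4.44 in NC and 3.64 in siPSCA, below), SEC24A over SEC24B (0.724 and 0.588, below), KDELR1 over KDELR2 (1.84 and 2.20, above), ARF1 over ARF4 (1.47 and 1.66, above) and SEC24D over SEC24B (0.733 and 0.709, overlapping). With the GC and length trend removed, the log2 fold changes of ARF1 (−0.23) and ARF4 (0.10) lay in the opposite order. So did those of KDELR1 (−0.05) and KDELR2 (0.0033), and SEC23A (−0.07) and SEC23B (−0.08) lay close together. In the other shifted pairs the order stayed, with LMAN1 at −0.84 and LMAN2 at −0.34.

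Pairs within a complex, chosen after their values were seen, also shifted. SEC61G over SEC61A1 was 0.775, 0.835 and 1.17 in NC and 0.390, 0.365 and 0.400 in siPSCA. COPB1 over COPZ1 was 1.56, 1.47 and 1.47 in NC and 0.848, 0.863 and 0.853 in siPSCA. The former pair joins the genes at opposite ends of GC content within the translocon, and the latter joins subunits of coatomer. SSR1 over SSR4 was 2.29, 2.18 and 3.60 in NC and 1.15, 1.13 and 1.47 in siPSCA. No test was made on these ratios, and a trend on GC content can move them.

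Other genes of the pathway, 74 from a written list of which 70 passed the FPKM minimum, had a median log2 fold change of −0.09. They gave 28 falls (40.0%), 19 rises (27.1%) and 23 that did not pass. Among all 13796 tested genes 24.2% fell and 26.6% rose, so the share of rises in the list was close to that background and the share of falls was above it. ARFGAP3, an ARF1 GTPase-activating protein of the Golgi, was at 15.1, 14.2 and 13.9 FPKM in NC and at 7.15, 6.87 and 7.09 in siPSCA (log2 fold change −0.94, SE 0.05, adjusted p = 0.000278). TRAM1, a partner of the translocon, was at 82.3, 86.8 and 103.8 FPKM in NC and at 48.0, 45.9 and 48.1 in siPSCA (log2 fold change −0.92, SE 0.09, adjusted p = 0.00113). USO1, the tether p115 of ER-derived vesicles, was at 52.7, 53.9 and 62.0 FPKM in NC and at 29.4, 29.7 and 33.3 in siPSCA (log2 fold change −0.85, SE 0.08, adjusted p = 0.00114). These were the largest falls of the list, and in each the siPSCA libraries lay wholly below NC. The largest rises were TMED1 (log2 fold change 0.71, SE 0.15, adjusted p = 0.0111), ARFGAP2 (0.61, SE 0.09, adjusted p = 0.00291) and TMEM258 (0.59, SE 0.09, adjusted p = 0.00416), of which TMED1 was 0.29 and did not pass with the trend removed. By step, the list gave 10 falls and 8 rises among 29 tested genes of ER exit, 7 and 5 among 14 of the COPI cycle, and 11 and 6 among 27 of translocation, signal peptide cleavage and N-glycosylation. With the trend removed the list gave 21 falls and 11 rises.

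The starts of the members were searched for the element TGACGTGG, which the unfolded protein response factors XBP1 and ATF6 are known to bind, on both strands of the RefSeq promoters (GRCh38.p14, 250 bases before to 50 after each start). Promoters were matched by symbol for 44 of the 49 members, and those of SEC24D, ARF4, TMED4, TMED9 and KDELR2 were not matched. Of the 59 windows of these 44 members, 51 had their last 40 bases within a GENCODE transcript of the gene. The window of SEC16A lay wholly upstream of the start listed for that gene (136483759, minus strand), and that of SSR3 lay inside its listed span (156540140 to 156555184). The element stood in 13 of 44 members (29.5%), in 117 of 9098 tested genes with a promoter (1.29%) and in 256 of 35116 promoters (0.729%). The 13 were ARF1, COPA, COPB1, COPB2, GBF1, KDELR3, SEC16A, SEC23A, SEC24A, SEC62, SSR3, SSR4 and STX5. Windows of 30 bases around it are shown for the 9 that fell and for SEC16A, which rose, so that the element can be seen beside the direction of each gene. The sequence runs 5′ to 3′ on the strand of the gene, and the capitals mark TGACGTGG or its reverse complement CCACGTCA.
SEC24A (chr5:134648595-134648624, plus strand): gtgagagtcggTGACGTGGcggcgaggccg
SEC23A (chr14:39103221-39103250, minus strand): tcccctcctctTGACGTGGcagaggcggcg
SEC16A (chr9:136484707-136484736, minus strand): tggccctggtgCCACGTCAgccggactgaa
STX5 (chr11:62832049-62832078, minus strand): ttacgtgtaggTGACGTGGccgcttccagt
COPA (chr1:160343227-160343256, minus strand): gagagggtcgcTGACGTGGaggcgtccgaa
COPB1 (chr11:14499841-14499870, minus strand): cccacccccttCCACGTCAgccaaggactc
COPB2 (chr3:139389825-139389854, minus strand): gctcagcggcaCCACGTCAcggcccttagt
COPB2 (chr3:139389632-139389661, minus strand): tcccggaagttCCACGTCAgtcagtctgac
KDELR3 (chr22:38468039-38468068, plus strand): ggccgccctggCCACGTCAccgcccggcca
SEC62 (chr3:169966779-169966808, plus strand): ccctcctcgctCCACGTCAgagggaaccgg
SSR3 (chr3:156554148-156554177, minus strand): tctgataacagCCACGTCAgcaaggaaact

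Of the 13 members with the element 9 fell, 1 rose and 3 did not pass, and their median log2 fold change was −0.35. Of the 31 members without it 15 fell, 4 rose and 12 did not pass, with a median of −0.14, and all 117 tested genes with the element had a median of −0.10. The shares of those 117 called lower and higher were not taken, so the counts by element stand without a background. With the GC and length trend removed, SEC23A, COPB2, SEC62, SSR3 and SEC16A lost their calls and ARF1 was called lower. Calls also changed among members without the element, such as SAR1A, TMED5 and PREB, which lost theirs. The medians in that fit were −0.12 with the element, the value of COPA, and −0.13 without it, the value of COPG2. In KDELR3 the element began 46 bases before the start and in COPB1 48 bases before it, and both genes fell in siPSCA in both fits. LMAN1 and TMED7, which fell most, did not hold these letters in their windows. The shorter ACGTG, the core of the hypoxia response element and also contained in TGACGTGG, stood in 33 of 44 members (75.0%), in 32.9% of tested genes with a promoter and in 21.4% of promoters. The longer endoplasmic reticulum stress response element, CCAAT and CCACG set 9 bases apart, stood in 0 of 44 members and in 0.176% of tested genes with a promoter. A match is a description of the sequence and says nothing of whether a factor was bound in these cells.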

How the data were processed

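The FPKM values that the authors deposited stand in 1 table on GRCh38, which lists 58735 genes with length and position. Starts, ends and exonic lengths were those of GENCODE release 29. The aligner and counting program are not given in the sources used here. The members and lists were chosen with earlier results of these data known. FPKM times length was a whole multiple of 1 step in each library (within 0.1 read), and reads were recovered from it.

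The 13796 genes whose FPKM averaged 1 or more were fitted as log2(FPKM + 1) by group with limma 3.58.1 (lmFit, eBayes with trend) in R 4.3.3, and p-values were 2-sided with Benjamini-Hochberg adjustment over all of them. The pseudocount understates fold changes of low genes. Natural splines (5 df) of GC content and log2 length gave the fit without that trend. Named genes were all members and, of the other pathway genes, the 3 largest rises and falls that passed without overlap. Other alternatives were a pseudocount of 0.1, an FPKM minimum of 5 or none, TPM, a replicate block, leaving out each library and, chosen after the data were seen, voom. The group fit was also run on simulated counts that held no GC trend and no outlying library, so that run does not bear on these features of the data. Same-numbered libraries had correlations of deviations of 0.0955, 0.0132 and 0.134, so the numbers were not taken as pairs. 28 members share exonic bases with another gene, and some of those genes are expressed. THAP9-AS1, on the strand of SEC31A, covers 5.27% of its exonic bases at a mean of 12.0 FPKM. DAGLB covers 9.42% of KDELR2 on its strand (3.94 FPKM), and IDH3G covers 6.06% of SSR4 on the opposite strand (19.0 FPKM). Promoters came from RefSeq (GRCh38.p14). Tables and plots were made in Python 3.11.15 (numpy 2.4.6, matplotlib 3.10.9, pandas 2.3.3).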

Additional observations from a re-analysis of the deposited data

How the results depend on the processing

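Members called lower numbered 20 to 25 and members called higher 3 to 7 when 1 library was left out, and the stricter rule named 0 to 1 as higher. All genes called numbered 4610 to 7410 in those fits, of them 2275 to 4025 higher and 2335 to 3385 lower, with the lowest totals without siPSCA 1. With the GC and length trend removed the members gave 2 rises and 23 falls, the stricter rule 6 falls, the other pathway genes 11 rises, and the median of the members was −0.12. Values that reversed there, and to the same figures with the replicate block added, were SAR1B (0.31), SEC22B (0.27), ARF4 (0.10), SSR2 (0.029), KDELR2 (0.0033), COPE (−0.46), LMAN2 (−0.34), TMED9 (−0.30), ARF1 (−0.23), SURF4 (−0.23), SSR4 (−0.11), GBF1 (−0.050) and KDELR1 (−0.051), and the cause was not tested. No filter on low values left 3 rises among the members. A minimum FPKM of 5 gave 2140 genes lower and a median of −0.17 over the members it kept. On TPM the median was −0.25, and TMED3 (−0.031), TMED9 (−0.016) and SURF4 (−0.034) reversed. With voom it was −0.22, and TMED3 (−0.0030) and SURF4 (−0.0043) reversed. Leaving out 1 library gave COPE −0.048 to 0.20, TMED3 −0.050 to 0.058, TMED4 −0.070 to 0.0024 and TMED9 −0.020 to 0.11. A pseudocount of 0.1 left all 49 members on their side of the threshold. The 2 planned count tests were not run, since the deposited unit is FPKM.

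With the replicate number as a block, 6725 genes passed, 5 members rose and 25 fell. KDELR1 then missed the threshold (adjusted p = 0.0592) and SSR4 passed it (adjusted p = 0.0146). Block and trend removal together gave 4642 genes, 2196 of them lower, with 2 members higher and 21 lower, 6 falls by the stricter rule, 11 rises among the other pathway genes and a median of −0.12. Not every library correlated best with its own number.

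At 221 to 430 reads per library BET1 rests on the fewest reads of the members, and PSCA on too few to compare.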
